A study of Sus scrofa with 8 samples.

Results

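Classical antiviral interferon-stimulated genes are the transcripts that cells switch on after an interferon binds its receptor. The set examined here was a list of 33 gene symbols, taken from the known antiviral effectors, sensors of viral RNA, the ISG15 conjugation system, PARP-family proteins and a few further induced genes. Transcripts were matched to the list through their Entrez gene identifiers or, where these had no match, the nearest reference transcript. Of the 33 genes, 29 were found among the 21064 Entrez genes counted. ISG15, XAF1, IFI6 and SAMD9 had no match and were not analysed here. IFIT5 was matched through a synonym, and RIG-I is given under its symbol DDX58. Each of the 29 genes had 1 transcript in the annotation, none shared exonic bases with another gene, and all 29 passed the filter on low counts.

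The samples were endometrium of 8 prepuberal German Landrace gilts, 4 pregnant and 4 non-pregnant, collected on day 14 after insemination. All 8 gilts received 750 IU PMSG and 72 h later 500 IU hCG, hormones that synchronize ovulation. The pregnant group was inseminated with Pietrain semen at 24 h and again at 36 h from hCG, and the control group with the supernatant left after that boar's semen had been centrifuged. RNA from 3 places of a single horn was pooled for each gilt, so each library is 1 animal. In the pregnant gilts tissue came from hyperemic zones, where an embryo attaches, and in the controls from comparable places, so pregnancy as such and the choice of an attachment site cannot be told apart. RNA integrity numbers ran from 7.0 to 8.8, poly(A) RNA was sequenced, and the deposited counts summed to between 28035007 and 41016150 per library.

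Interferons of type I and type III signal through JAK kinases to a transcription factor complex that holds STAT2 and IRF9 and binds response elements in the promoters of these genes. Interferon gamma, of type II, raises IRF1 and induces an overlapping set of genes. The pig conceptus is known to secrete interferon gamma and interferon delta around the time of attachment, and the endometrium is known to express antiviral genes in response.

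Antiviral genes were higher in pregnant endometrium throughout most of the list. The test was edgeR's quasi-likelihood F-test, with p-values adjusted after Benjamini and Hochberg over the 18783 transcripts that passed the filter. At an adjusted p under 0.05, 23 of the 29 genes were higher, whereas 11.2% of all transcripts tested were higher and 21.3% differed in either direction. No member was lower by edgeR, where 10.1% of all transcripts were. With 15 alternative settings 22 or 23 members were higher, where 8.43% to 14% of all transcripts were. DESeq2 and limma voom also called 0 members lower, and by edgeR all 29 log2 changes were above 0. In the same 23 genes every pregnant gilt lay above every control gilt, a pattern that 13.2% of all transcripts showed. The change was at least 2-fold in 22 of them, against 7.05% of all transcripts, and at least 4-fold in 11. The median log2 change was 1.54 over the 29 genes and -0.02 over all transcripts. The 6 genes that did not pass were OAS1, OAS2, EIF2AK2, IFITM1, IFITM3 and ZC3HAV1, all with log2 changes above 0. Levels below are CPM, counts divided by the library total after scaling by TMM factors, and positions are spans of the deposited transcript models on Sscrofa10.2. A rise, fall or change by a bare number is a log2 change.

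**Figure D1:**
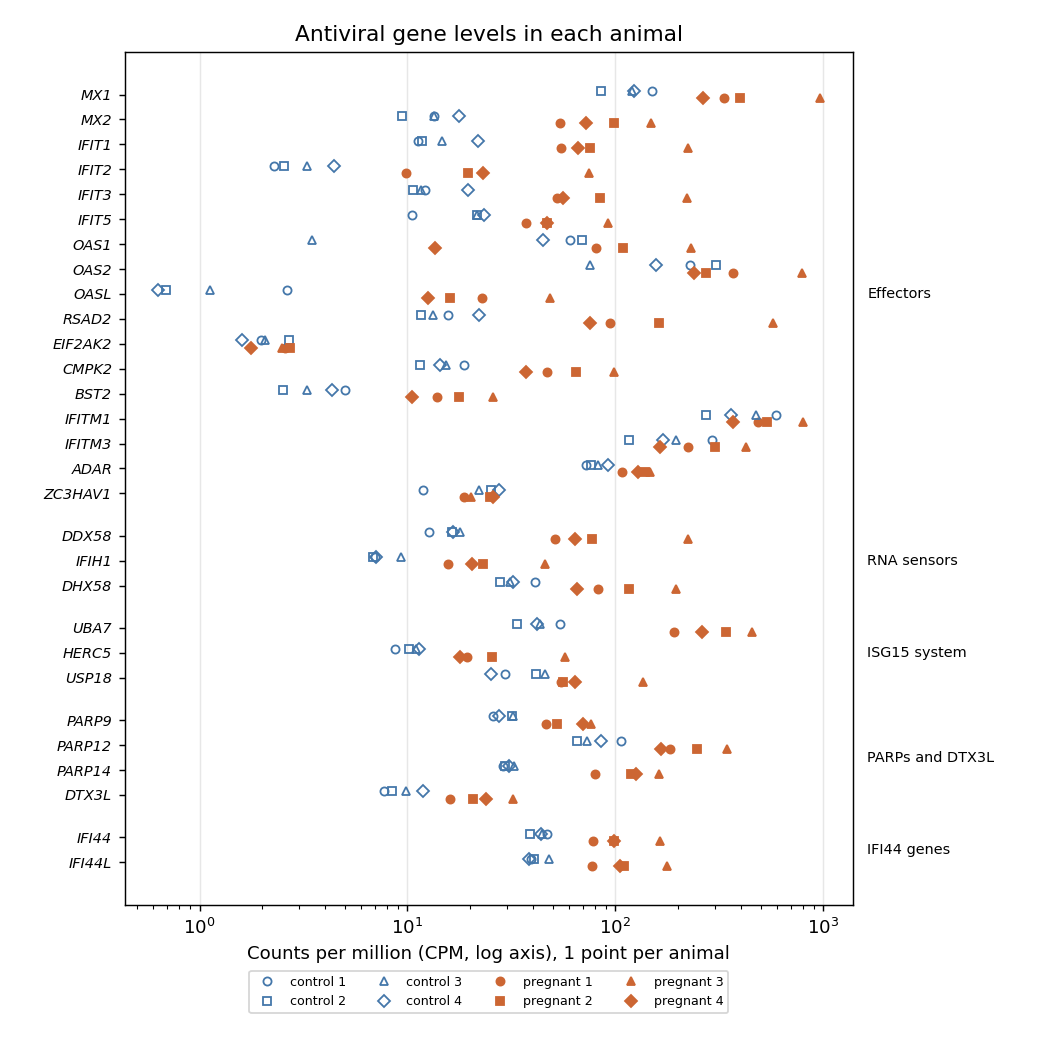
CPM (log axis) of each of the 29 genes in the 4 control and 4 pregnant gilts, with 1 point per gilt. In 23 genes the pregnant points lie wholly above the control points, and pregnant gilt 3 is the highest point in 27.

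Of 18 listed effectors, proteins that block a step of viral replication, 17 were found and 11 were higher, with a median log2 change of 2.03 over the 17. The largest changes were in OASL and RSAD2. OASL, a relative of the oligoadenylate synthetases that binds RIG-I (Entrez 595119, chromosome 14, 43414433 to 43431813), was at 2.65, 0.689, 1.13 and 0.63 CPM in control gilts 1 to 4. It was at 22.8, 16.0, 48.5 and 12.6 CPM in pregnant gilts 1 to 4. The lowest pregnant value was thus above the highest control value, although control gilt 1 stood above the other controls. The log2 change was 4.31 ± 0.59 (SE, adjusted p = 0.000834, edgeR), and 4.96 without control gilt 1.

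RSAD2 encodes viperin, which produces a chain-terminating nucleotide (Entrez 396752, chromosome 3, 137666403 to 137683528). Control gilts 1 to 4 had 15.7, 11.6, 13.3 and 22.1 CPM, and pregnant gilts 1 to 4 had 94.4, 162, 574 and 75.7 CPM. The groups were apart, and 1 pregnant gilt was far above the other 3. The log2 change was 3.85 ± 0.66 (SE, adjusted p = 0.00313, edgeR) and 2.82 without pregnant gilt 3. CMPK2, a mitochondrial nucleotide kinase that provides the substrate of viperin, lies 5162 bases away on the opposite strand. It rose from 15.0 ± 2.99 to 61.9 ± 26.9 CPM (SD, n = 4 each), with a log2 change of 2.05 ± 0.28 (SE, adjusted p = 0.000599, edgeR).

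IFIT1 binds viral RNA that lacks the host's cap methylation, and the 4 IFIT genes lie side by side on chromosome 14. IFIT1 (Entrez 100153038, 110223575 to 110235660) had 11.2, 11.8, 14.6 and 21.9 CPM in control gilts 1 to 4 and 54.8, 75.2, 223 and 66.1 CPM in pregnant gilts 1 to 4. IFIT2 (Entrez 100155467, 110179711 to 110188614) had 2.27, 2.55, 3.29 and 4.41 CPM in the controls and 9.84, 19.6, 74.9 and 23.0 CPM in the pregnant gilts. IFIT3 (Entrez 100154248, 110209343 to 110210869) had 12.1, 10.6, 11.6 and 19.7 CPM in the controls and 52.6, 84.6, 221 and 56.3 CPM in the pregnant gilts. All 3 genes had the same pattern, with no overlap of the groups, control gilt 4 highest among controls and pregnant gilt 3 highest among pregnant gilts. Their log2 changes were 2.82 ± 0.47, 3.34 ± 0.60 and 2.94 ± 0.48 (SE), with adjusted p of 0.00281, 0.00405 and 0.00251 by edgeR. Without pregnant gilt 3 they were 2.14, 2.48 and 2.26. IFIT5 was also higher, with a log2 change of 1.53 ± 0.32 (SE, adjusted p = 0.00647, edgeR). Reads of the IFIT genes can be split between similar copies, and how the counting treated such reads is not given in the sources used here.

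MX1 and MX2 encode dynamin-like proteins that trap viral nucleocapsids, and lie 24902 bases apart on chromosome 13. MX1 (Entrez 397128, 214988890 to 215011284) had 151, 85.3, 120 and 122 CPM in control gilts 1 to 4 and 335, 398, 962 and 265 CPM in pregnant gilts 1 to 4. MX2 (Entrez 396893, 215036187 to 215059000) had 13.5, 9.43, 13.4 and 17.6 CPM in the controls and 54.1, 98.9, 149 and 72.2 CPM in the pregnant gilts. Neither gene had overlapping groups. The log2 change was 2.03 ± 0.39 (SE, adjusted p = 0.00483) for MX1 and 2.79 ± 0.31 (SE, adjusted p = 0.00018) for MX2 by edgeR. The pregnant gilts differed more from each other in MX1, where their SD was 319 CPM around a mean of 490, than the controls did, with an SD of 26.8 around 120.

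Other effectors moved less, or were counted on short models. BST2, or tetherin, which holds budding virions at the cell surface, rose from 3.79 ± 1.11 to 17.0 ± 6.62 CPM (SD, n = 4 each), a log2 change of 2.16 ± 0.30 (SE, adjusted p = 0.00066, edgeR). Its transcript model is 1 exon of 115 bases on chromosome 13. The RefSeq table for Sscrofa11.1 does not place its Entrez identifier on that chromosome, so its identity is uncertain. ADAR, which edits adenosine in double-stranded RNA, had 71.9, 76.2, 82.2 and 92.5 CPM in control gilts 1 to 4 and 108, 139, 146 and 128 CPM in pregnant gilts 1 to 4. Its log2 change of 0.69 ± 0.13 (SE, adjusted p = 0.00368, edgeR) was the smallest among the 23 genes that passed.

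OAS1 and OAS2, which make the oligoadenylates that activate RNase L, spread too widely within each group to pass the test. OAS1 (Entrez 397570, chromosome 14, 41260682 to 41266796) had 60.7, 69.3, 3.49 and 44.7 CPM in control gilts 1 to 4 and 80.9, 109, 230 and 13.6 CPM in pregnant gilts 1 to 4. OAS2 (Entrez 595128, 41196296 to 41208969) had 228, 306, 75.1 and 158 CPM in the controls and 368, 273, 793 and 239 CPM in the pregnant gilts. In both genes control gilt 3 was the lowest control and pregnant gilt 4 the lowest pregnant gilt, and the groups overlapped. The highest OAS1 value was 17.0 times the lowest among the pregnant gilts and 19.9 times among the controls. Control gilt 3 was the lowest control in no other member. The log2 changes were 1.28 ± 0.92 for OAS1 (SE, adjusted p = 0.367, and 0.234 to 0.696 under the alternatives) and 1.13 ± 0.48 for OAS2 (SE, adjusted p = 0.132, and 0.0947 to 0.328), by edgeR. Without pregnant gilt 3 the log2 change of OAS1 was 0.61.

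The other effectors that did not pass were EIF2AK2, IFITM1, IFITM3 and ZC3HAV1. IFITM1 and IFITM3, membrane proteins that hinder virus entry, were already abundant in the controls. IFITM1 had 595, 272, 476 and 359 CPM in control gilts 1 to 4 and 488, 539, 803 and 367 CPM in pregnant gilts 1 to 4, with a log2 change of 0.37 ± 0.27 (SE, adjusted p = 0.372, edgeR). IFITM3 ran from 116 to 292 CPM in the controls and from 165 to 424 in the pregnant gilts, with a log2 change of 0.52 ± 0.32 (SE, adjusted p = 0.278, edgeR). Its model is 1 exon of 247 bases, and the IFITM genes have similar copies, so reads may be split between them. EIF2AK2, the kinase PKR that halts translation, had 1.97, 2.70, 2.06 and 1.604 CPM in the controls and 2.58, 2.72, 2.48 and 1.77 CPM in the pregnant gilts. Its log2 change was 0.20 ± 0.25 (SE, adjusted p = 0.622, edgeR). ZC3HAV1, which binds viral RNA and recruits its decay, had means of 21.8 ± 6.97 and 22.4 ± 3.41 CPM (SD, n = 4 each). Its log2 change was 0.04 ± 0.24 (SE, adjusted p = 0.923, edgeR), and its sign turned when control gilt 1 or pregnant gilt 2 or 4 was left out.

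**Figure D2:**
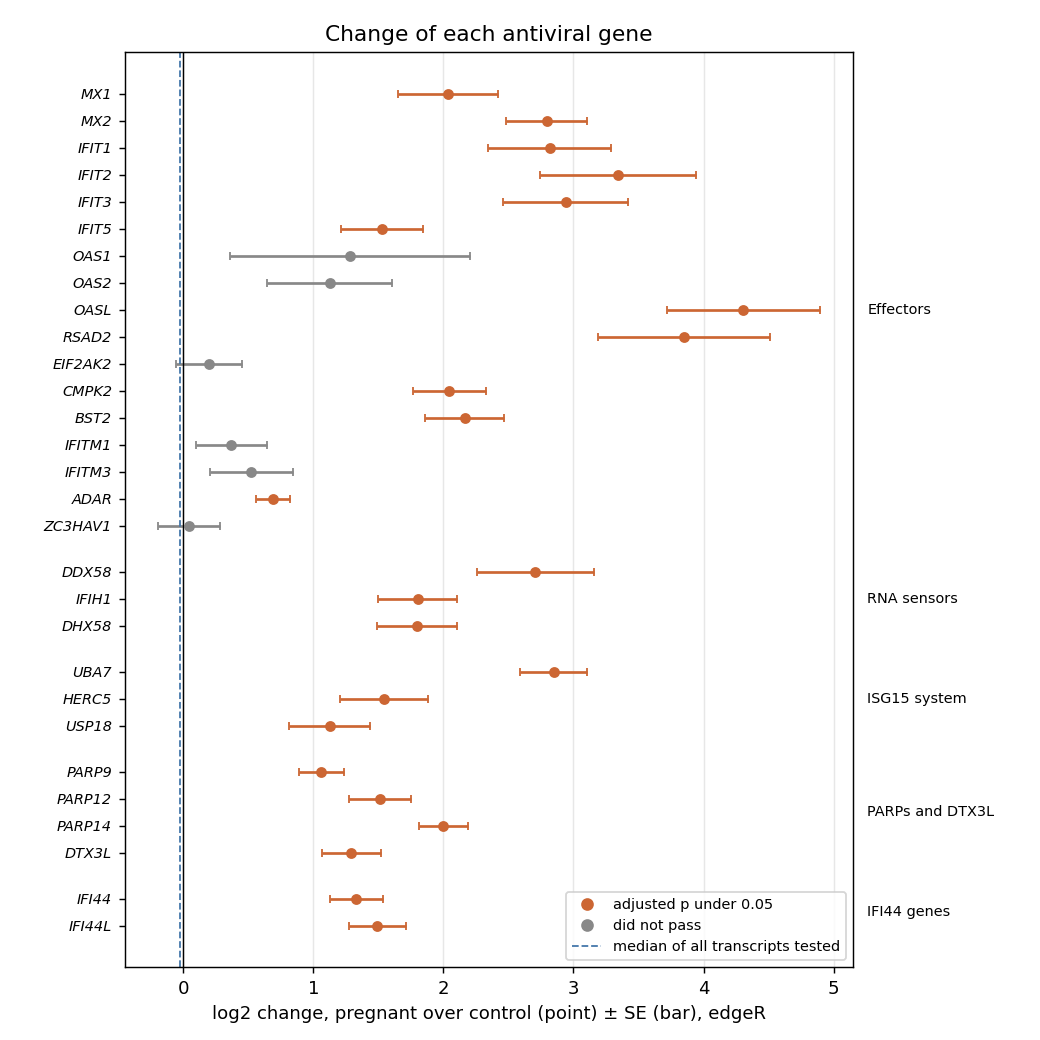
Log2 change of each gene, pregnant over control, with its standard error (edgeR, 4 gilts per group). Values run from 0.04 for ZC3HAV1 to 4.31 for OASL, and the 6 genes that did not pass are marked apart from the 23 that did.

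All 3 cytosolic sensors of viral RNA were higher, with a median log2 change of 1.80. DDX58, or RIG-I, which recognises the triphosphate end of viral RNA (Entrez 396723, chromosome 10, 38145243 to 38190149), had 12.8, 16.4, 17.8 and 16.5 CPM in control gilts 1 to 4. It had 51.5, 76.9, 223 and 63.6 CPM in pregnant gilts 1 to 4. The controls lay close together, while pregnant gilt 3 was well above the other 3. The log2 change was 2.71 ± 0.45 (SE, adjusted p = 0.00259, edgeR), and 2.01 without that gilt. IFIH1, or MDA5, which detects long double-stranded RNA, rose by 1.80 ± 0.30 (SE, adjusted p = 0.00185, edgeR). DHX58, or LGP2, which modulates both sensors, rose by 1.80 ± 0.31 (SE, adjusted p = 0.00224, edgeR), from 33.1 ± 5.66 to 115 ± 57.9 CPM (SD, n = 4 each).

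Of the ISG15 system, which attaches the ubiquitin-like protein ISG15 to newly made proteins, ISG15 itself was not analysed here and the other 3 genes were higher. UBA7, the enzyme that activates ISG15 (Entrez 100512631, chromosome 13, 35511586 to 35520513), had 54.2, 33.8, 43.5 and 41.8 CPM in control gilts 1 to 4 and 191, 341, 453 and 261 CPM in pregnant gilts 1 to 4. Its log2 change of 2.85 ± 0.26 had the smallest adjusted p of the 29 genes (4.82e-05, edgeR). HERC5, the ligase that attaches ISG15, was counted on a model of 5 exons and 873 bases and rose by 1.54 ± 0.34 (SE, adjusted p = 0.00889, edgeR). USP18, which removes ISG15 and restrains receptor signalling, had 29.4, 41.7, 46.0 and 25.3 CPM in control gilts 1 to 4 and 54.7, 55.8, 136 and 63.7 CPM in pregnant gilts 1 to 4. The groups did not overlap, but the gap was narrow. Its log2 change was 1.12 ± 0.31 (SE, adjusted p = 0.0286, edgeR), and its adjusted p lay between 0.00184 and 0.0813 under the alternatives. The call was lost without control gilt 1 (1.07, adjusted p = 0.0813, edgeR) or control gilt 4 (0.99, adjusted p = 0.0578, edgeR).

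PARP9, PARP12, PARP14 and DTX3L were all higher, with a median log2 change of 1.404. PARP14, an ADP-ribosyl transferase that sustains interferon responses (Entrez 100153948, chromosome 13, 147429355 to 147483518), had 28.7, 29.4, 32.4 and 30.9 CPM in control gilts 1 to 4. In pregnant gilts 1 to 4 it had 79.5, 118, 163 and 126 CPM. The control SD of 1.65 CPM was small beside the difference, and the log2 change was 2.00 ± 0.19 (SE, adjusted p = 6.23e-05, edgeR). PARP9 and DTX3L, which work as a complex and whose genes are 72 bases apart on opposite strands, rose by 1.06 ± 0.17 and 1.29 ± 0.22 (SE, adjusted p = 0.00138 and 0.00226, edgeR). PARP12, which binds viral RNA and inhibits replication, rose by 1.51 ± 0.24 (SE, adjusted p = 0.00123, edgeR). The 2 further induced genes found, IFI44 and IFI44L, rose by 1.33 ± 0.20 and 1.49 ± 0.22 (SE, adjusted p = 0.00109 and 0.000872, edgeR). Their 4 control gilts ran from 38.8 to 47.1 and from 38.4 to 48.1 CPM, and their pregnant gilts from 78.0 to 164 and from 76.9 to 176 CPM.

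On a per-length scale, CPM per kilobase of exon, the most abundant members were not the most changed. IFITM3 and IFITM1 ranked first and second in both groups. Mean IFITM3 was 783 ± 298 in the controls and 1126 ± 452 in the pregnant gilts (SD, n = 4 each). RSAD2 went from rank 23 (5.43) to rank 9 (78.5), UBA7 from 12 (13.4) to 7 (96.1) and IFIT3 from 17 (8.84) to 10 (67.9). ADAR went from rank 8 (22.9) to 18 (37.0), while ZC3HAV1 went from 18 (8.10) to 28 (8.35). OASL was the lowest member in the controls (0.965) and EIF2AK2 the lowest in the pregnant gilts (1.77). The short models of BST2 and IFITM3 make their per-length values uncertain.

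**Figure D3:**
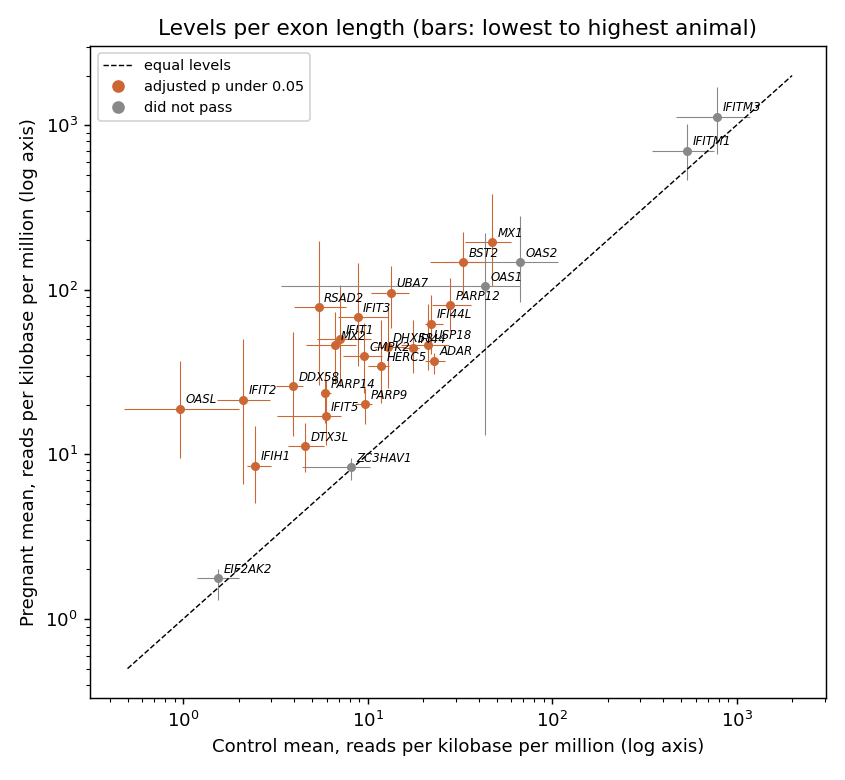
CPM per kilobase of exon of each member, control mean against pregnant mean (log axes), with bars from the lowest to the highest gilt and a dashed line of equal levels. IFITM3 and IFITM1 lead in both groups, and RSAD2 moves from rank 23 to rank 9.

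The pregnant gilts were not alike. Pregnant gilt 3 was the highest of the 4 in 27 of 29 members, including all 23 that were higher, whereas it was the highest in 29.4% of all transcripts tested. The exceptions were EIF2AK2, highest in pregnant gilt 2, and ZC3HAV1, highest in pregnant gilt 4. The lowest pregnant gilt was gilt 1 in 16 members and gilt 4 in 13. Folds of single gilts were taken after adding 0.5 CPM. Over the control mean, the median fold of the members was 2.02, 2.93, 5.28 and 2.39 in pregnant gilts 1 to 4. Against the mean of the other 3 pregnant gilts, pregnant gilt 3 had a median fold of 1.98 over the members and 1.01 over all transcripts. RSAD2 stood at 5.17-fold, IFIT2 at 4.20 and DDX58 at 3.46, while PARP9 stood at 1.36 and ADAR at 1.17. Without pregnant gilt 3 the same 23 members were higher, where 9.13% of all transcripts were.

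**Figure D4:**
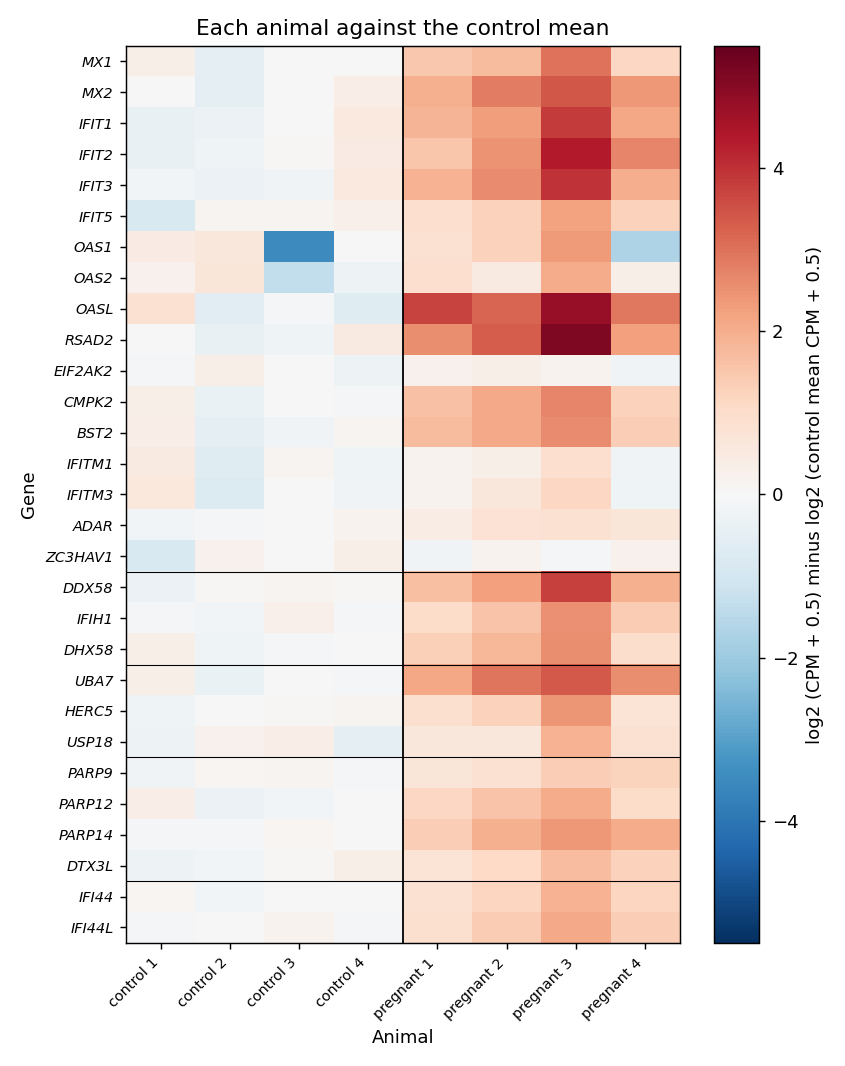
Log2 of each member's CPM in each gilt over the mean of the 4 controls (0.5 CPM added to both). Columns are the 8 gilts and rows the 29 genes. The column of pregnant gilt 3 holds the highest pregnant value in 27 rows.

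The excess in pregnant gilt 3 tended to be greater in members that also changed more in the other 3 pregnant gilts. Across the 29 members, the excess and the log2 change computed without that gilt had a Spearman rho of 0.508 and a Pearson r of 0.553. Both quantities use the other 3 pregnant libraries, and genes are not independent replicates. Member profiles of the control gilts had Spearman rho from 0.871 to 0.968 with each other, and those of the pregnant gilts from 0.787, between gilts 3 and 4, to 0.970. Between a control and a pregnant gilt it ran from 0.623 to 0.934. Over all transcripts the same ranges were 0.967 to 0.984, 0.978 to 0.986 and 0.916 to 0.957.

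**Figure D5:**
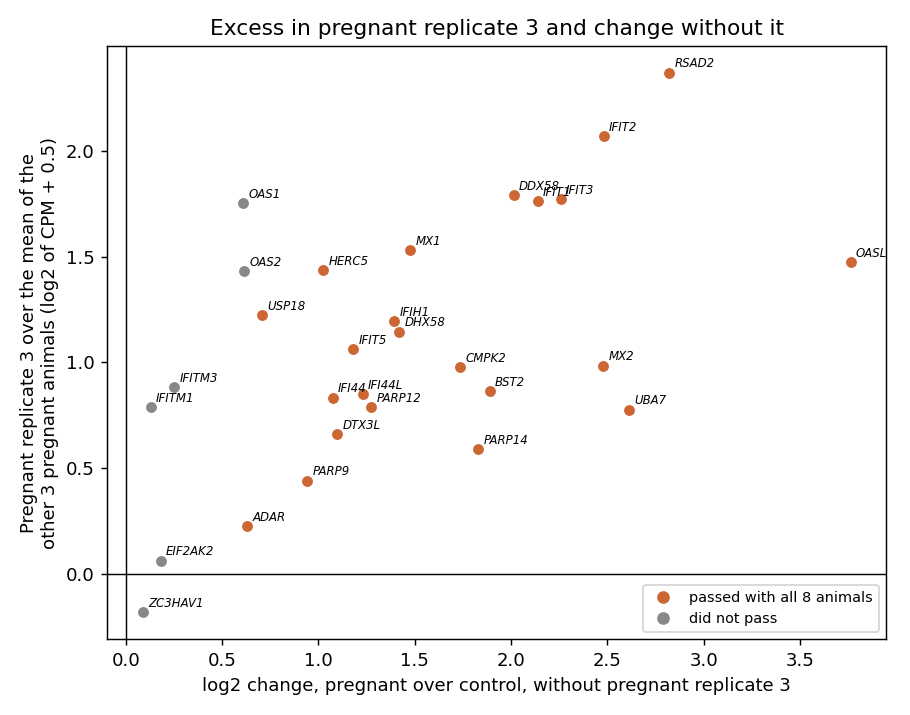
Log2 of each member's level in pregnant gilt 3 over the other 3 pregnant gilts (vertical axis, 0.5 CPM added), against its log2 change without pregnant gilt 3 (29 points, coloured by whether the gene passed with all 8 gilts). RSAD2 and IFIT2 lie highest, and ZC3HAV1, at 0.882-fold, lies below the line at 0.

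Of the 29 members, 17 lie within 100 kb of another member, in 7 groups, and 12 have none. Neighbours did not always change alike. RSAD2 changed by 3.85 and CMPK2 by 2.05, and IFIT5, 5134 bases from IFIT1, changed by 1.53 where IFIT1, IFIT2 and IFIT3 changed by 2.82 to 3.34. OAS1 and OAS2, 51712 bases apart, both failed the test, as did IFITM1 and IFITM3, 26649 bases apart. Differences between neighbours were not tested.

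Upstream of the members, 12 of 18 listed receptors and signal transducers were found and 9 were higher, 0 lower, with a median log2 change of 1.04. Beside this and the other lists here, 11.2% of all transcripts tested were higher and 10.1% lower. IRF7, the factor that amplifies interferon responses, rose by 2.54 ± 0.35 (SE, adjusted p = 0.000681, edgeR) and had 149, 230, 360 and 127 CPM in pregnant gilts 1 to 4, again highest in gilt 3. STAT2 rose by 1.99 ± 0.21 (SE, adjusted p = 0.000103), IRF5 by 2.02 ± 0.19 (SE, adjusted p = 5.51e-05) and IRF1 by 3.29 ± 0.19 (SE, adjusted p = 4.25e-06) by edgeR. The 3 that did not pass, JAK1, TYK2 and IRF3, are named after their values were seen. Of the sensing adaptors and kinases, 7 of 11 tested were higher and 0 lower, with ZBP1 (1.89) and the endosomal receptors TLR7 (1.64), TLR8 (3.06) and TLR9 (1.20) among them. Of 26 tested antiviral genes outside the list, 20 were higher and 0 lower, with a median of 1.28. This list shares STAT2, IRF7 and IRF9 with the transducers above and GBP1 with the interferon gamma-responsive genes below, which also share IRF1 with the transducers, so the counts of these lists are not independent. GBP1, a guanylate-binding protein, rose by 5.53, SAMHD1, which depletes nucleotides, by 2.86, and UBE2L6, which carries ISG15, by 2.25.

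Genes known mainly as interferon gamma-responsive were examined beside the members. All 18 tested were higher, where 11.2% of all transcripts were. The log2 changes of these 18 had a median of 2.85 and included 8.34 for IDO1 and 4.96 for GBP2. Their median fold over the control mean was 5.17, 8.01, 8.63 and 6.39 in pregnant gilts 1 to 4, and pregnant gilt 3 stood at 1.24-fold over the other 3. Pregnant gilt 3 was above the mean of the other 3 in 17 of these 18 genes and in 28 of the 29 antiviral members. Over all transcripts tested it was above that mean in 51.7%. The difference between these genes and the antiviral members was not tested.

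Most interferon transcripts that were found were scarce. Of 14 listed interferon ligands, 8 were found. The type III genes IFNL1, IFNL3 and IFNL4 had no match and were not analysed here. IFNW1, IFND and IFN-OMEGA-1 had no match under those names. IFNG had 4 reads in the 4 controls together and 26 in the 4 pregnant gilts, 13 of them in gilt 2, too few for the filter. Every pregnant gilt, at 0.122 to 0.34 CPM, lay above every control, at 0 to 0.0599 CPM, a pattern that 13.2% of the transcripts tested showed. With so few reads the difference in IFNG was not tested. IFNB1 had 4 and 3 reads, IFNK 13 and 18, IFNA1 28 and 16, IFN-ALPHA-1 20 and 26, and IFN-ALPHAOMEGA 0 and 2. Counting every alpha, delta, omega and epsilon gene, 9 passed the filter. IFN-DELTA-1 was among them, with a log2 change of 0.35 ± 0.50 (SE, adjusted p = 0.664, edgeR). IFNE, an interferon known from the reproductive tract, fell from 8.21 ± 2.93 to 3.62 ± 1.06 CPM (SD, n = 4 each), with a log2 change of -1.19 ± 0.29 (SE, adjusted p = 0.015, edgeR). Its groups overlapped, and without pregnant gilt 2 it did not pass (adjusted p = 0.0517, edgeR). Of the other 7 that passed the filter, 0 were called higher or lower by edgeR, DESeq2 or limma voom, and 1 had an unadjusted p under 0.05.

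Markers of T cells, natural killer cells and macrophages were mostly higher in the pregnant gilts, as the members were, while other marker lists were mixed. Of T cell and natural killer markers 15 of 17 tested were higher, 0 lower, and their summed level was 48.3 to 118 CPM in the controls and 209 to 300 CPM in the pregnant gilts. CD2, an adhesion receptor of these cells, had a log2 change of 3.26. Of macrophage and dendritic cell markers 10 of 12 were higher and 1 lower, at 393 to 706 and 1157 to 1528 CPM. AIF1, a macrophage protein, had a log2 change of 3.20. Of B and plasma cell markers 2 of 6 were higher, at 32.1 to 44.9 and 48.9 to 229 CPM, with pregnant gilt 3 the highest, beside 11.2% of all transcripts. The 2 were MZB1, which did not pass without control gilt 3 (adjusted p = 0.0531, edgeR), and JCHAIN, whose groups overlapped and which did not pass in 8 of 15 alternatives. Without pregnant gilt 3 the log2 change of JCHAIN was 0.79 in place of 1.58. Of neutrophil markers 3 of 7 were higher and 1 lower, with a median log2 change of -0.118. The 3 were all S100 genes, S100A8, S100A9 and S100A12, and the rest tested did not pass. Summed levels were 17.0 to 21.1 CPM in the controls and 142 to 514 CPM in the pregnant gilts, with pregnant gilt 3 the lowest of these and MPO at 0. S100A9 alone gave 492 of the 514 CPM in pregnant gilt 1 and 118 of the 142 CPM in pregnant gilt 3, so the sum mostly follows that gene. S100A9, a calcium-binding protein of granulocytes, had a log2 change of 9.40. The collagenase MMP8 had a log2 change of -6.14, and of -7.59 without pregnant gilt 2. Of epithelial markers 4 of 10 were lower and 1 higher, of stromal markers 2 of 8 were higher and 2 lower, and of endothelial markers 2 of 9 were higher, where 11.2% of all transcripts were higher and 10.1% lower. Calls of LUM, COL3A1 and DPT among the stromal markers were lost in 5, 4 and 1 alternatives, and the endothelial ERG passed in 3. KRT8, a keratin of simple epithelia, had a log2 change of -2.10. Among listed conceptus markers GATA2, at 143 CPM in the controls and so not particular to the conceptus, was lower, and STAR, HSD17B1 and TFAP2C did not pass. PAG1 was higher, at 0.314 and 0.974 CPM, but the gene matched lies on chromosome 4, apart from the pregnancy-associated glycoprotein PAG6 on chromosome 2, and by the reference table it is another gene of that symbol, so it is no conceptus marker. The others were below the filter: POU5F1 had 0 reads in the controls and 10 in the pregnant gilts, all in gilt 3, CDX2 0 and 4, ELF5 15 and 40, and CYP17A1 11 and 7. PAG6 was at 0 in the controls and in pregnant gilt 4, and at 0.778, 0.105 and 0.0662 CPM in pregnant gilts 1 to 3. The part of these cells in the antiviral result was not tested. In bulk tissue, more cells of a type and more RNA per cell cannot be told apart.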

How the data were processed

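Poly(A) RNA of 8 endometrium samples was sequenced with a kit that does not mark strand. Per the submitters' processing notes, CASAVA 1.6, TopHat 1.4, Cufflinks 1.3 and DESeq were used with Sscrofa10.2, with settings not given in the sources read here. The authors deposited raw read counts for 24139 transcripts and a merged transcript annotation. Symbols came from the reference gene tables through Entrez identifiers, which matched 16270 of 21064 genes. Where an identifier had no match, the nearest reference transcript given with the counts was used instead. Positions were not taken from them, since their assembly is Sscrofa11.1, but the chromosome of each member was compared with theirs. Where a gene had several transcripts, that with the highest mean count was used.

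The fit used edgeR 4.0.16 under R 4.3.3, with TMM factors, the filterByExpr filter (minimum count 10), robust quasi-likelihood estimation, group as the only term and a threshold of 0.05 on the adjusted p. The script was tested on simulated data. Alternatives were RLE and upper-quartile factors, DESeq2 1.42.0, voom of limma 3.58.1, no filter, 1 transcript per gene, a replicate block, and each library left out. The labels give each group replicate numbers 1 to 4, but the gilts are different animals, and no label pairs them. Deviations of same-numbered gilts correlated at 0.186, -0.093, -0.032 and 0.085. The highest correlation of control gilts 1 to 4 with a pregnant gilt of another number was 0.068, 0.167, 0.142 and 0.028. Such small correlations cannot decide whether same-numbered gilts shared a processing step, so the main fit had no block. The text names all members, up to 4 genes with the smallest p of each other list, and every gene found of the interferon ligand and conceptus lists. The members and lists were chosen with earlier results of these data known.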

Additional observations from a re-analysis of the deposited data

Results flagged for a closer look

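In each of 58 groups of 4 gilts, 1 group for each member and condition, the most extreme gilt was compared with the nearest of the others, and its gap was set against the whole range of the group. The gap was above Dixon's critical share of the range for 4 samples in 6 groups, where chance gives about 1 in 20. Pregnant gilt 3 was the high value in 3 of them. IFIT1 was at 223.1 CPM in that gilt with the next at 75.23, DDX58 at 222.7 with the next at 76.87, and USP18 at 136.4 with the next at 63.67. The other 3 lay among the controls. IFIT3 was at 19.65 CPM in control gilt 4 with the next at 12.14, IFIH1 at 9.26 in control gilt 3 with the next at 7.075, and IFIT5 was low in control gilt 1, at 10.48 with the next at 21.62.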

How the results depend on the processing

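The count of members higher in pregnant endometrium was 23 under every alternative except without control gilt 1 or control gilt 4, where it was 22 because USP18 did not pass. It was 0 for members lower throughout. Leaving out 1 gilt at a time gave 22 to 23. Of 435 member values under 15 alternatives, 430 kept their direction and their side of the threshold, 2 lost the call and 3 changed sign. Of 720 values of the other named genes, 689 kept both, 20 lost a call, 5 gained one and 6 changed sign. The sensing adaptors higher numbered 5 to 7 and the receptors and transducers 7 to 10 over the alternatives. The 3 member values belong to ZC3HAV1, whose log2 change ran from -0.14 to 0.18 with 1 gilt left out. STAR ran from -0.16 to 0.37 and TFAP2C from -0.12 to 0.40 in the same way. With the replicate block, 23 members were higher, and 3883 transcripts were called in place of 4009. DESeq2 called 4988. The count of all transcripts lower in pregnant gilts was 1898. With 1 gilt left out it ran from 1265, without pregnant gilt 2, to 2017, without control gilt 4, and DESeq2 gave 2364. The search of promoters for response elements was not run, since no sequence table was used here. With 4 gilts per group, a wide spread between gilts, as in OAS1 and OAS2, limits what the test can call. Reads of similar copies, the short models of BST2 and IFITM3 and the unmarked strand limit single-gene values.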

Other observations

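Interferon genes were also summed by family, a grouping chosen after seeing which symbols the annotation holds. The 12 interferon alpha genes together had 353 reads in the 4 controls and 274 in the 4 pregnant gilts. The 11 delta genes had 241 and 335 reads, and the 6 omega genes 313 and 355. Pregnant gilt 3, the gilt with the highest level of most antiviral members, had 48 alpha, 66 delta and 93 omega reads, within or below the range of the other pregnant gilts except for the single alphaomega gene, which had 2 reads, both in that gilt.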
